A study of Mus musculus with 6 samples.

Results

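The genes described are 41 genes of translation initiation factors, chosen by name from the 55416 genes of the count files: the factors numbered eIF1 to eIF6 with their subunits, close relatives and the eIF4E-binding proteins. RNA was sequenced in 6 libraries of spleen T cells selected for CD3, which T cells carry with their antigen receptor, from wild-type C57BL/6 mice that had received a graft. In 3 libraries the recipients carried allografts, from a genetically different donor, and in 3 they carried isografts, from a genetically identical one. In both groups the cells were held in serum-containing culture medium, per the labels' protocols. Neither the grafted organ nor the donor strain, mouse age, time after grafting or time in culture is given in the labels. Whether each library stands for its own mouse is not given either, and the p-values therefore reflect only how far these libraries spread, which may be technical.

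Initiation is the step of protein synthesis in which the ribosome finds its start codon. The factor eIF2 brings the initiator tRNA to the small ribosomal subunit and is recharged by its exchange factor eIF2B, eIF3 is the large scaffold on that subunit, and eIF4 factors bind the mRNA cap and unwind the leader. T cells that leave the resting state are known to raise protein synthesis, and initiation is held in check by phosphorylation of eIF2 and by the eIF4E-binding proteins.

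Totals were 30078504 to 34123777 counts in allograft libraries and 30066137 to 37821738 in isograft libraries. All 12 T cell markers examined were detected, summing to 1668 to 1860 CPM (counts per 1000000, scaled between libraries by TMM, the trimmed mean of M values) in allograft libraries and 1895 to 1968 CPM in isograft libraries. The 12 B cell markers, none of them at 0, summed to 1925 to 2065 CPM in allograft and 1662 to 1772 CPM in isograft libraries, so B cell transcripts were present in both groups. Of the 12 T cell markers, 4 were higher and 5 lower in allograft libraries, and of the 12 B cell markers, 4 were higher and 4 lower. Of 8 macrophage and monocyte markers, 1 was higher and 3 lower. Over all genes tested 28.7% were higher and 29.1% lower, so these counts alone do not show a change in cell content. Macrophage and monocyte markers summed to 79.7 to 90.6 CPM in allograft and 98.3 to 104.01 CPM in isograft libraries, and erythroid markers to at most 1.48 CPM in allograft and 1.43 CPM in isograft libraries. The part of these other cells in the results below was not tested, and in bulk samples fewer cells of a type and less RNA per cell cannot be told apart.

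Most initiation factor genes were higher in allograft libraries. All 41 passed the low-count filter. By edgeR's quasi-likelihood test with Benjamini-Hochberg adjustment over 14926 genes, 34 of them (82.9%) rose, 2 fell and 5 did not pass a threshold of 0.05 on the adjusted p. Over all genes tested 28.7% rose and 29.1% fell. At least 2-fold, 15 members rose and 1 fell, where 10.1% of all genes rose and 10.1% fell by that much. The median log2 fold change, allograft minus isograft, was 0.75 over the members and -0.01 over all genes tested. The libraries of the groups did not overlap for 36 of the 41 members, as for 63.3% of all genes tested.

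The members together made up 2.18, 2.21 and 2.21% of all counts in allograft libraries, against 1.35, 1.36 and 1.41% in isograft libraries. On the TMM scale their sum was 1.87 times as high in allograft libraries, and 1.9 times as high with Eif3a left out, the gene that by itself held 28.3 to 30.3% of the sum in allograft and 30.1 to 30.6% in isograft libraries. The rise of the sum therefore did not rest on that single gene. Scaling by total counts instead shifts the log2 fold change of the median gene by -0.22, and on that scale 28 members rose and 4 fell, where 19.9% of all genes rose and 40.8% fell.

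**Figure D1:**
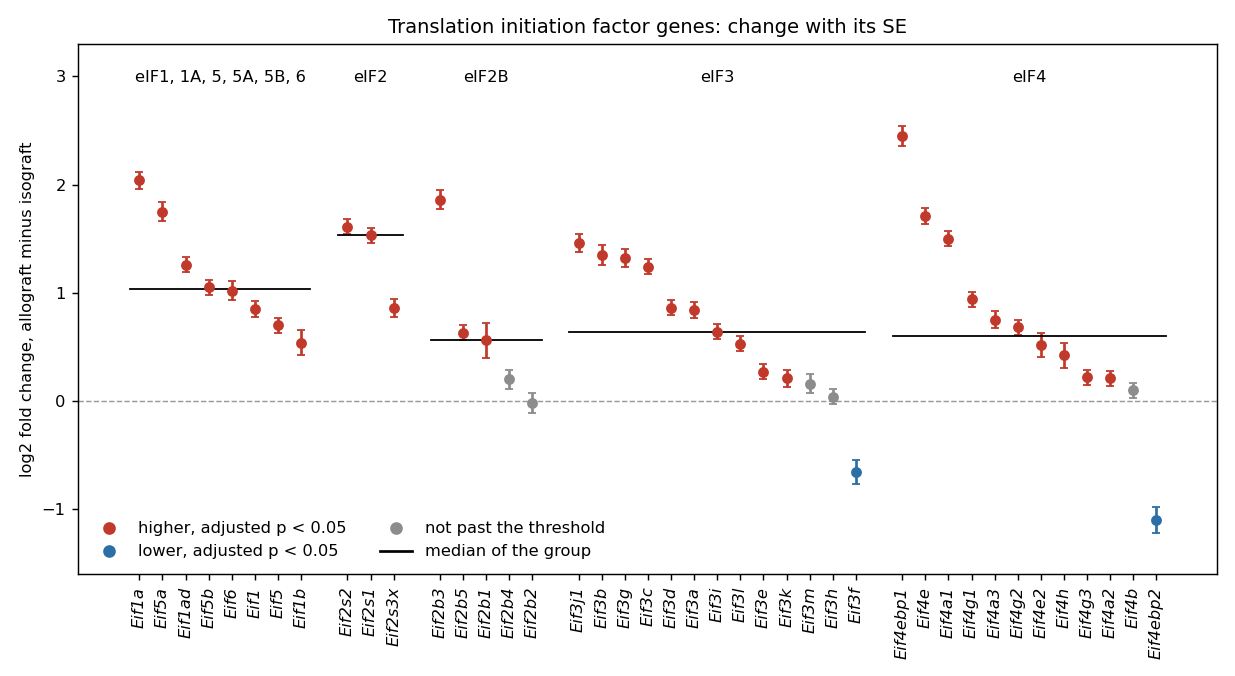
Log2 fold change, allograft minus isograft, of each of the 41 initiation factor genes on the y axis, with its SE as the bar, ordered within the groups along the x axis; black lines are group medians. All members of the eIF1, 5 and 6 group and of eIF2 lie above 0, while Eif3f (-0.66) and Eif4ebp2 (-1.10) are the 2 that fell.

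By complex, the change was uneven, where 28.7% of all genes tested rose and 29.1% fell. All 3 eIF2 genes rose, with a median log2 fold change of 1.53. For eIF3, 10 of 13 rose and 1 fell (median 0.64). Among the eIF4 genes 10 of 12 rose and 1 fell, with a median of 0.60, and for eIF2B 3 of 5 rose and 0 fell, with a median of 0.56. The 8 remaining genes, eIF1 to eIF6 without these complexes, all rose, with a median of 1.04.

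The eIF2 median stood 0.89 above that of eIF3 and 0.93 above that of eIF4, differences that scaling does not touch. With 3 genes, the eIF2 median is the value of Eif2s1 alone. It also leaves out the Y-linked gamma subunit gene Eif2s3y, which is not a member and did not pass (-0.15), and with which it would be lower. The eIF4 median was 0.04 below that of eIF3, and the eIF2B median 0.08 below it. These medians are descriptions and were not tested, and the groups' ranges overlap: 0.86 to 1.61 for eIF2, -0.02 to 1.86 for eIF2B, -0.66 to 1.46 for eIF3 and -1.10 to 2.45 for eIF4. The eIF4 genes thus held both the highest and the lowest value of all members.

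Some members carry in their promoters the E-box CACGTG, the sequence bound by MYC and related factors. It is a palindrome and so reads the same on both strands. RefSeq promoter windows (GRCm38.p6, 250 bases before to 50 after a start) matched 33 of the 41 members by symbol. Those not matched were Eif1a, Eif2b3, Eif3e, Eif3h, Eif3i, Eif4ebp1, Eif4g2 and Eif6. The letters CACGTG stood in a window of 9 of the 33 (27.3%), against 1170 of 10039 genes past the low-count filter (11.7%) and 2187 of 27025 genes in all (8.09%). Since some genes have several starts, the share of windows is given too, 26.2% of 42 for members and 7.15% of 32851 overall. The motif was found for 8 of the 27 matched members that rose and for 1 of the 6 other matched members, Eif3f, which fell. Large rises without the motif included Eif2s2 (1.61), Eif2s1 (1.53) and Eif3j1 (1.46). The share among all genes that rose was not computed, so the motif is not tied to the rise here. The difference in share was not tested, and a match is not a binding site.

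Shown here are the stretches around the motif for the 4 members with the largest rises among those that hold it, from 30 bases before to 30 after, or to the window's edge, so that the surroundings can be compared. All lie before the start used, run 5′ to 3′ on the gene's strand and have the motif in capitals. The first is at chr11:69921425-69921490 (minus strand), the second at chr3:138527018-138527239 (plus), the third at chr11:69672577-69672642 (minus) and the last at chr16:20672643-20672708 (plus), all GRCm38.p6.
Eif5a: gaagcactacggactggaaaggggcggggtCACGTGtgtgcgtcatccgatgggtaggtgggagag
Eif4e: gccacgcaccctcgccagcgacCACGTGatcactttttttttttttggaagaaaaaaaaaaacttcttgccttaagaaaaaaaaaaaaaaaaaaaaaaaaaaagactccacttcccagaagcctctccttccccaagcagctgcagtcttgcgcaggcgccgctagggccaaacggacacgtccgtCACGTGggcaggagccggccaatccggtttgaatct
Eif4a1: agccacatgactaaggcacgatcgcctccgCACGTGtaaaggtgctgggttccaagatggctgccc
Eif4g1: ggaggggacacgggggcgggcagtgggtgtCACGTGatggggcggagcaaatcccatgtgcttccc
The motif began 74 bases before the start in Eif5a, 228 and 64 in Eif4e, 189 in Eif4a1 and 54 in Eif4g1. Eif5a has 6 annotated starts, of which 3 windows held the motif, and Eif4e has 2, of which 1 did. The window shown for a gene was the one with the most motifs and, among equals, with the motif nearest the start. The distances therefore reflect that choice. Which start was used in these cells is not shown by counts per gene.

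The genes outside eIF2, eIF2B, eIF3 and eIF4, among them the factors of start codon choice and subunit joining, rose throughout. Eif1a encodes a form of eIF1A, which works in the decoding site of the small subunit during scanning. It had 199.9, 208 and 213 CPM in allograft libraries, against 47.0, 48.6 and 55.3 CPM in isograft libraries, with no overlap (log2 fold change 2.04 ± 0.08 (SE), adjusted p = 5.5e-14). It has a near-identical copy on the X chromosome, Eif1ax, which averaged 85.7 ± 4.74 CPM in allograft and 43.1 ± 1.02 CPM in isograft libraries (SD, n = 3 each). Under the counting options in the headers, reads that fit both copies are left out, so the level of each is uncertain. Both copies passed in the same direction.

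Eif5a encodes eIF5A (chromosome 11, 69807540 to 69812784, GRCm39), which despite its name acts mainly in elongation and termination and carries the amino acid hypusine. Its level was 726, 666 and 558 CPM in allograft libraries, against 185, 190.1 and 205 CPM in isograft libraries (1.75 ± 0.09, adjusted p = 5.2e-12). The lowest allograft library was well above every isograft library. Of the enzymes that make hypusine, Dhps averaged 24.9 ± 0.395 CPM in allograft and 21.2 ± 0.804 CPM in isograft libraries (0.23 ± 0.09), and Dohh 2.40 ± 0.195 and 1.35 ± 0.141 CPM (0.83 ± 0.26).

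Eif5b encodes the GTPase that joins the large subunit (chromosome 1, 38037091 to 38094660). It had 1557, 1538 and 1653 CPM in allograft libraries, against 721, 760.4 and 809.7 CPM in isograft libraries (1.05 ± 0.07, adjusted p = 1.7e-10). Eif6 encodes a factor that keeps the large subunit apart from the small one and acts in its assembly. Its values were 125, 118 and 97.9 CPM in allograft libraries, against 53.0, 53.3 and 61.4 CPM in isograft libraries (1.02 ± 0.09). Eif1ad, a relative of eIF1A known in human cells for the maturation of the small subunit, stood at 94.9, 97.5 and 91.6 CPM in allograft libraries, against 37.6, 41.3 and 39.6 CPM in isograft libraries (1.26 ± 0.07). For each of the 3 genes all allograft libraries were above all isograft libraries.

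Smaller rises were seen for Eif1, which guards start codon choice, its relative Eif1b, and Eif5, the factor that makes eIF2 hydrolyse GTP. Eif1 had 129, 122 and 125 CPM in allograft libraries, against 64.9, 73.9 and 69.1 CPM in isograft libraries (0.85 ± 0.07). Eif1b had 18.1, 16.2 and 15.4 CPM in allograft libraries, against 10.1, 11.2 and 13.0 CPM in isograft libraries (0.54 ± 0.12, adjusted p = 0.00077). Eif5 averaged 470.3 ± 4.21 CPM in allograft and 290.0 ± 7.65 CPM in isograft libraries (0.70 ± 0.07).

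The 3 genes of eIF2 rose, the alpha and beta subunits more than gamma. Eif2s2, the beta subunit (chromosome 2, 154713330 to 154734855), had 1988, 2058 and 1882 CPM in allograft libraries, against 641, 621 and 675 CPM in isograft libraries (1.61 ± 0.07, adjusted p = 3.2e-13). Eif2s1, the alpha subunit whose phosphorylation holds back initiation (chromosome 12, 78908593 to 78933784), had 294, 302 and 323 CPM in allograft libraries, against 114, 101 and 105 CPM in isograft libraries (1.53 ± 0.07, adjusted p = 1.1e-12). In both genes the values of a group lay close together and far from the other group's.

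Eif2s3x, the X-linked gene of the gamma subunit, had 181, 200.3 and 212 CPM in allograft libraries, against 102, 117 and 107 CPM in isograft libraries (0.86 ± 0.08, adjusted p = 1.2e-08). Its Y-linked copy Eif2s3y, which is not a member, averaged 94.2 ± 4.69 CPM in allograft and 104.2 ± 8.03 CPM in isograft libraries and did not pass (-0.15 ± 0.08, adjusted p = 0.11). Per gene length, in RPKM (CPM divided by the gene's length in kilobases), Eif2s2 was the highest of the 3 members at 293 ± 13.1 in allograft and 95.6 ± 4.03 in isograft libraries. Eif2s1 reached 61.9 ± 2.94 and 21.5 ± 1.34 RPKM, and Eif2s3x 51.9 ± 4.19 and 28.5 ± 1.99 RPKM.

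In eIF2B the catalytic subunits gamma and epsilon and the regulatory subunit alpha rose, and the regulatory subunits beta and delta did not pass. Eif2b3, the gamma subunit (chromosome 4, 116876599 to 116944503), had 42.1, 47.6 and 41.8 CPM in allograft libraries, against 12.4, 11.9 and 11.9 CPM in isograft libraries (1.86 ± 0.09, adjusted p = 2.7e-12). Eif2b5, the epsilon subunit that carries the exchange activity, had 149, 135 and 135 CPM in allograft libraries, against 89.4, 90.9 and 91.0 CPM in isograft libraries (0.63 ± 0.07). Both genes were higher in every allograft library.

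Eif2b1, the alpha subunit, was at a low level and its groups nearly touched, with 11.6, 14.0 and 15.1 CPM in allograft libraries, against 11.3, 6.81 and 9.67 CPM in isograft libraries (0.56 ± 0.16, adjusted p = 0.0075). Scaled by total counts it missed the threshold (adjusted p = 0.0924). The delta subunit gene Eif2b4 averaged 84.9 ± 10.3 CPM in allograft and 74.2 ± 5.58 CPM in isograft libraries (0.20 ± 0.09, adjusted p = 0.069), and it passed without allograft replicate 3 (0.28, adjusted p = 0.00606). The beta subunit gene Eif2b2 averaged 93.0 ± 12.5 and 94.4 ± 5.58 CPM (-0.02 ± 0.09, adjusted p = 0.86), and was called lower with total counts (-0.24, adjusted p = 0.0162).

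Within eIF3 the rises were led by Eif3j1, Eif3b, Eif3g and Eif3c. Eif3j1, a loosely attached subunit, had 313, 284 and 256 CPM in allograft libraries, against 95.8, 103 and 112 CPM in isograft libraries (1.46 ± 0.08, adjusted p = 1.7e-11). Its near-identical copy Eif3j2 stood at 11.8 ± 1.84 CPM in allograft and 4.81 ± 0.888 CPM in isograft libraries (1.30 ± 0.16), and the counts of both are uncertain. Eif3b, a core subunit (chromosome 5, 140405083 to 140429115), had 837, 743 and 638 CPM in allograft libraries, against 260.5, 295 and 313 CPM in isograft libraries (1.35 ± 0.09, adjusted p = 1.6e-09). Every allograft library lay above every isograft library in the 3 genes.

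Eif3g, an RNA-binding subunit, had 633, 599 and 501 CPM in allograft libraries, against 217, 243 and 234 CPM in isograft libraries (1.32 ± 0.08). Eif3c (chromosome 7, 126145627 to 126165583), with Eif3a the base of the complex, had 2441, 2575 and 2541 CPM in allograft libraries, against 1029.8, 1023 and 1139.8 CPM in isograft libraries (1.24 ± 0.07). These groups too were far apart. Eif3a itself, the largest subunit (chromosome 19, 60749555 to 60779096), had 6763, 6873 and 7160.1 CPM in allograft libraries, against 3697, 3887 and 4011 CPM in isograft libraries (0.84 ± 0.07).

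Among the other subunits, rises were found for Eif3d, which can bind the mRNA cap in human cells (0.86 ± 0.07), Eif3i (0.64 ± 0.07), Eif3l (0.53 ± 0.07), Eif3e (0.27 ± 0.07, adjusted p = 0.0039) and Eif3k (0.21 ± 0.08, adjusted p = 0.024). Eif3e missed the threshold when scaled by total counts (0.05, adjusted p = 0.612). The call of Eif3k was lost without allograft replicate 2 (adjusted p = 0.0763), isograft replicate 2 (0.115) or isograft replicate 3 (0.11), with no low-count filter (0.0617), and with total counts, where the value was -0.02 (adjusted p = 0.87).

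Eif3f was the eIF3 gene that fell (chromosome 7, 108533624 to 108542158). It encodes a subunit of the MPN domain class and had 44.3, 35.6 and 35.4 CPM in allograft libraries, against 50.6, 65.2 and 66.8 CPM in isograft libraries (-0.66 ± 0.11, adjusted p = 8.9e-05). The groups did not overlap, though the highest allograft value was close to the lowest isograft value. Eif3h, of the same class, averaged 282 ± 6.27 CPM in allograft and 275 ± 4.70 CPM in isograft libraries (0.04 ± 0.07, adjusted p = 0.65), and with total counts it was called lower (-0.18, adjusted p = 0.0201). Eif3m averaged 83.2 ± 4.33 and 74.5 ± 9.78 CPM (0.16 ± 0.09, adjusted p = 0.13) and passed without isograft replicate 1 (0.27, adjusted p = 0.0132).

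Split by structure, a division made after the values were seen and therefore not tested, the 5 subunits that also form the stable complex of budding yeast (Eif3a, Eif3b, Eif3c, Eif3g and Eif3i) all rose, with a median log2 fold change of 1.24. Of the 8 others, 5 rose and 1 fell (median 0.24), where 28.7% of all genes tested rose and 29.1% fell. The ranges overlapped, 0.64 to 1.35 for the 5 core genes and -0.66 to 1.46 for the others, among them Eif3j1 with the largest eIF3 rise. The core genes summed to 10854.4 ± 86.9 CPM in allograft and 5506 ± 246 CPM in isograft libraries, and the others to 1489 ± 26.8 and 1089 ± 16.9 CPM. Most of the core sum came from Eif3a (6932 CPM in allograft and 3865 CPM in isograft libraries) and Eif3c (2519 and 1064 CPM).

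Per gene length the eIF3 genes were far from equal, though their proteins share a complex. Eif3a was the highest at 794 ± 23.5 RPKM in allograft and 443 ± 18.1 RPKM in isograft libraries, followed by Eif3c at 718 ± 19.9 and 303 ± 18.6 RPKM. Next came Eif3g (291 ± 34.5 RPKM) and Eif3b (221 ± 29.8 RPKM) in allograft libraries, and then Eif3h (175 ± 3.89 RPKM). In isograft libraries Eif3h (170.3 ± 2.92 RPKM) ranked above Eif3g (117 ± 6.73 RPKM) and Eif3b (86.5 ± 7.94 RPKM).

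The lowest were Eif3f at 13.3 ± 1.76 RPKM in allograft libraries and Eif3i at 14.9 ± 0.559 RPKM in isograft libraries. Eif3a stood 59.7 times above the lowest gene in allograft and 29.6 times above it in isograft libraries. In allograft libraries Eif3k (36.0 ± 0.371 RPKM) and Eif3l (36.6 ± 1.09 RPKM) did not differ beyond their spread, and in isograft libraries neither did Eif3d (29.9 ± 0.964 RPKM), Eif3k (31.2 ± 2.56 RPKM) and Eif3m (28.8 ± 3.78 RPKM). Such ranks take gene lengths from the union of exons, so they depend on which transcripts are in use. They also leave out reads that fit several places. Why Eif3a and Eif3c stood so far above the others was not examined.

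**Figure D2:**
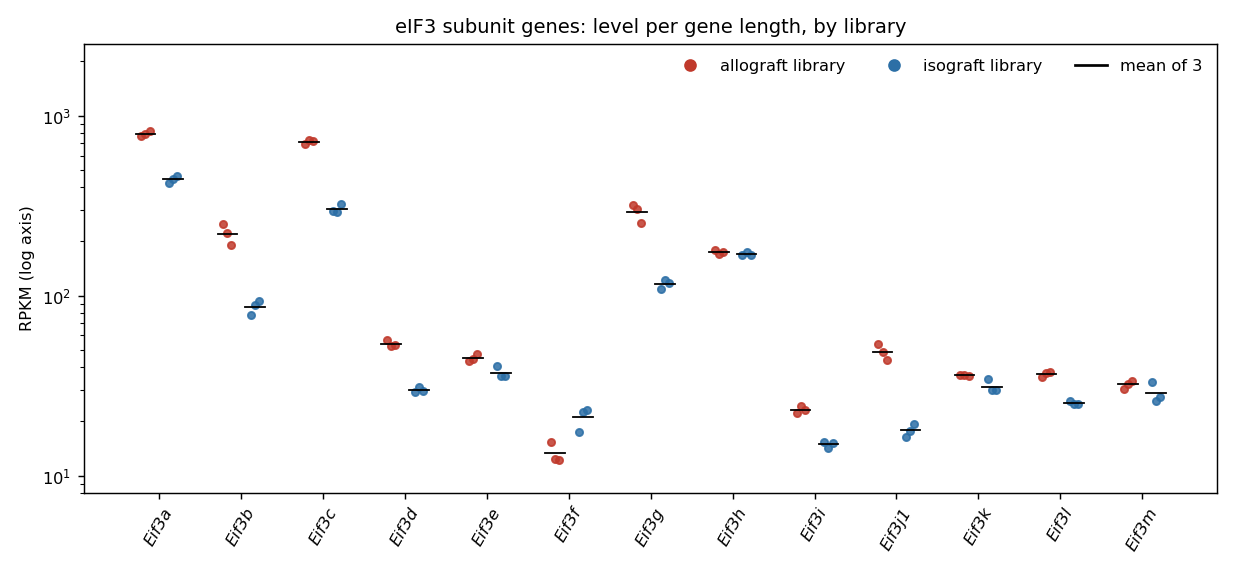
Level of the 13 eIF3 subunit genes in RPKM on a log axis, 1 point per library and a line at the mean of 3, allograft libraries left of isograft libraries in each gene. Eif3a and Eif3c lie highest in both groups, and Eif3f is the gene with all allograft points below its isograft points.

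In the eIF4 group the cap-binding protein, a helicase and an inhibitor rose most. Eif4e encodes the cap-binding protein eIF4E (chromosome 3, 138231940 to 138265457). It had 171, 191 and 176 CPM in allograft libraries, against 56.4, 54.1 and 53.5 CPM in isograft libraries (1.71 ± 0.07, adjusted p = 2.4e-13). Its relative Eif4e2, which binds the cap and is known for repressing translation, had 226, 196 and 157 CPM in allograft libraries, against 126, 139.5 and 137 CPM in isograft libraries (0.52 ± 0.11, adjusted p = 0.00063). Its allograft values were more spread out, with replicate 3 nearest to the isograft libraries.

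Eif4a1 encodes the RNA helicase eIF4A1 (chromosome 11, 69557762 to 69563249). It had 678, 713 and 724 CPM in allograft libraries, against 255, 241 and 253 CPM in isograft libraries (1.50 ± 0.07, adjusted p = 5.7e-13). A processed pseudogene, Eif4a-ps4, was counted separately at 121, 139 and 146 CPM in allograft libraries, against 53.2, 47.0 and 54.7 CPM in isograft libraries, so part of the reads of eIF4A genes may be counted there. It too was higher in all allograft libraries (1.39 ± 0.09). The second helicase gene, Eif4a2, differed little, with 579.8, 613 and 650.0 CPM in allograft libraries, against 533, 518 and 543 CPM in isograft libraries (0.21 ± 0.07, adjusted p = 0.014). Its groups did not overlap, but its call was lost without allograft replicate 3 (0.16, adjusted p = 0.0709), without isograft replicate 2 (adjusted p = 0.0669) and under scaling by total counts (-0.01, adjusted p = 0.897).

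Among the scaffold genes, Eif4g1 had a larger rise than Eif4g3. Eif4g1, the main scaffold that joins the cap complex to the small subunit (chromosome 16, 20487063 to 20511634), had 1135, 1126 and 1058 CPM in allograft libraries, against 528, 574 and 623 CPM in isograft libraries (0.94 ± 0.07, adjusted p = 1.6e-09). Eif4g3, its relative, had 525, 507 and 488 CPM in allograft libraries, against 413, 456 and 436 CPM in isograft libraries (0.22 ± 0.07, adjusted p = 0.0099), and missed the threshold when scaled by total counts (-0.00081, adjusted p = 0.993). Eif4g2, a relative without the region that binds eIF4E, averaged 656 ± 22.9 CPM in allograft and 410.4 ± 9.59 CPM in isograft libraries (0.68 ± 0.07).

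The helpers of the helicase moved less. Eif4h averaged 294 ± 50.2 CPM in allograft and 219 ± 24.0 CPM in isograft libraries (0.42 ± 0.12, adjusted p = 0.0073), a call that total counts ended (0.20, adjusted p = 0.0979). Eif4b averaged 824 ± 22.8 and 768 ± 55.7 CPM (0.10 ± 0.07, adjusted p = 0.23), with overlapping groups, and its value was -0.12 when scaled by total counts. Eif4a3, a helicase of the exon junction complex that is named with the others, averaged 117 ± 8.10 and 70.0 ± 5.61 CPM (0.75 ± 0.08).

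The genes of the eIF4E-binding proteins, which block eIF4E until they are phosphorylated, moved in opposite directions. Eif4ebp1 (chromosome 8, 27750357 to 27766702) had the largest rise of all members, with 116, 131 and 106 CPM in allograft libraries, against 19.9, 22.8 and 21.9 CPM in isograft libraries (2.45 ± 0.09, adjusted p = 3.6e-14). Eif4ebp2 (chromosome 10, 61264270 to 61288440) had the largest fall, with 37.4, 32.7 and 25.4 CPM in allograft libraries, against 60.8, 68.8 and 75.2 CPM in isograft libraries (-1.10 ± 0.12, adjusted p = 2.5e-06). Neither gene's groups overlapped. RNA levels do not show how much of either protein is phosphorylated.

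**Figure D3:**
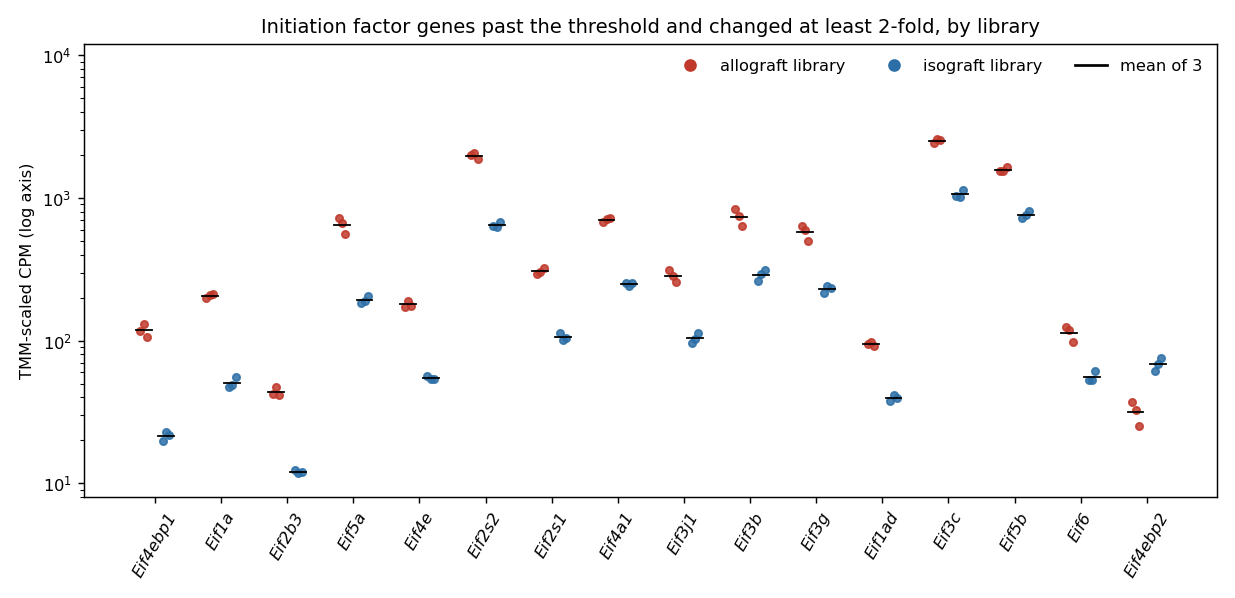
TMM-scaled CPM on a log axis for the 16 members that passed the threshold and changed at least 2-fold, 1 point per library and a line at the mean of 3, allograft left of isograft. For 15 genes all allograft points lie above the isograft points, and for Eif4ebp2 they lie below.

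Shares within pairs of related genes are free of the scaling between libraries. The share of Eif4ebp1 in the sum of Eif4ebp1 and Eif4ebp2, per gene length, was 89.1, 91.4 and 91.7% in allograft libraries, against 46.3, 46.6 and 43.4% in isograft libraries. For Eif4a1 with Eif4a2 it was 59.0, 58.9 and 57.8% in allograft libraries, against 37.0, 36.5 and 36.4% in isograft libraries, so Eif4a1 was the more abundant of the pair in allograft libraries and the less abundant in isograft libraries. The counts not divided by length gave the same order in all 6 libraries.

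Eif4e made up 48.6, 54.9 and 58.3% of its pair with Eif4e2 in allograft libraries, against 35.8, 32.6 and 32.8% in isograft libraries. For Eif4g1 with Eif4g3 the share was 76.6, 77.1 and 76.7% in allograft libraries, against 66.0, 65.6 and 68.4% in isograft libraries. Eif1 with Eif1b differed least, at 79.2, 80.1 and 81.4% in allograft libraries, against 77.6, 77.9 and 74.1% in isograft libraries. In all 5 pairs the allograft and isograft shares did not overlap. The two-sided exact permutation test over libraries gave p = 0.1 for each pair (0.1 after Benjamini-Hochberg adjustment over the 5 pairs), the smallest p that 3 libraries against 3 allow.

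**Figure D4:**
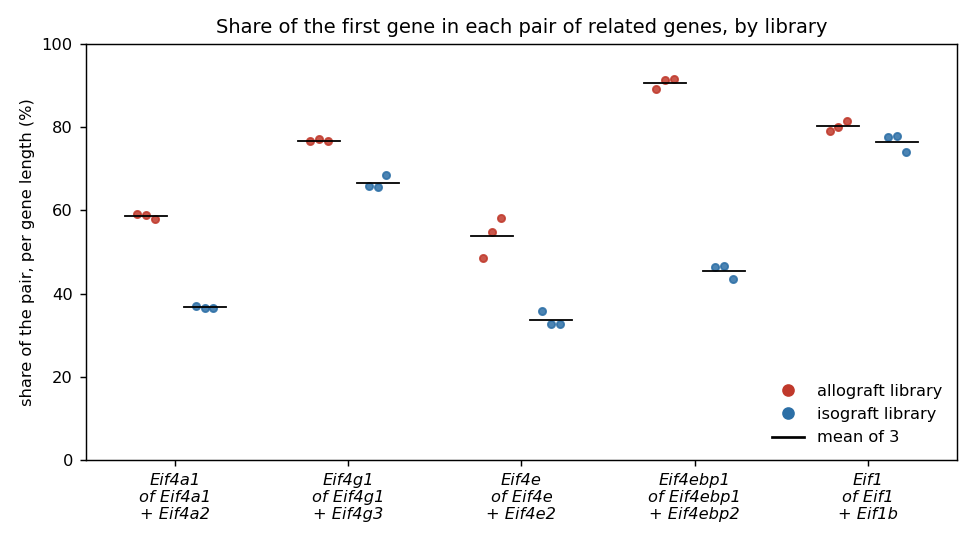
Share (%) of the first gene in the sum of both genes of a pair, counts per gene length, 1 point per library and a line at the mean of 3, allograft left of isograft. The mean share of Eif4ebp1 is 90.7% in allograft and 45.4% in isograft libraries, the widest gap of the 5 pairs.

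Other genes of the pathway were read from 3 lists. Of 26 further initiation factors and helpers, 25 were tested, of which 16 rose (64.0%, against 28.7% of all genes) and 3 fell (median log2 fold change 0.61). The smallest p-values belonged to Abce1, a ribosome recycling factor (345 ± 21.4 CPM in allograft and 119 ± 2.22 CPM in isograft libraries, 1.53 ± 0.07), to Bzw2 and Bzw1, which resemble part of eIF5 (1.52 ± 0.08 and 1.11 ± 0.08), and to Denr, a factor of reinitiation (0.99 ± 0.07). Among the 6 tested genes that did not pass was Pabpc1, the poly(A)-binding protein, at 2149 ± 202 CPM in allograft and 1909 ± 259 CPM in isograft libraries (0.17 ± 0.09, adjusted p = 0.13).

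Of 21 genes that control initiation, 8 rose (38.1%) and 4 fell (19.0%), with a median of 0.00, where 28.7% of all genes rose and 29.1% fell. Larp1, which binds mRNAs with a terminal oligopyrimidine start, rose to 653 ± 60.1 CPM in allograft libraries, against 199.97 ± 19.3 CPM in isograft libraries (1.71 ± 0.09). Ppp1r15a, the subunit that directs a phosphatase to eIF2, averaged 778 ± 60.7 CPM in allograft and 261 ± 8.07 CPM in isograft libraries (1.58 ± 0.07). Eif2ak3, the eIF2 kinase PERK, fell to 64.2 ± 1.31 CPM in allograft libraries, against 189.6 ± 11.1 CPM in isograft libraries (-1.56 ± 0.07). The other eIF2 kinase genes did not fall. Eif2ak2 averaged 350 ± 22.1 CPM in allograft and 197 ± 6.23 CPM in isograft libraries (0.83 ± 0.07). Eif2ak4 rose as well (0.37 ± 0.09), and Eif2ak1 did not pass (-0.02 ± 0.07, adjusted p = 0.83). Pdcd4, an inhibitor of eIF4A, fell to 154 ± 15.2 CPM in allograft libraries, against 411 ± 40.8 CPM in isograft libraries (-1.42 ± 0.09). Scaled by total counts, 6 of this list rose and 10 fell, where 19.9% of all genes rose and 40.8% fell.

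In the list of elongation and termination 8 of 12 genes rose (66.7%, against 28.7% of all genes) and 0 fell, with a median of 0.34. Scaled by total counts, 4 rose and 3 fell, where 19.9% of all genes rose and 40.8% fell. The release factor genes Etf1 (568 ± 31.7 CPM in allograft and 174 ± 11.1 CPM in isograft libraries, 1.71 ± 0.07) and Gspt1 (1.04 ± 0.08) led it. The elongation factor genes changed little: Eef1b2 rose by 0.41 ± 0.07 and Eef1g by 0.37 ± 0.07 on the log2 scale, Eef2 averaged 2020.4 ± 114 CPM in allograft and 2249.8 ± 162 CPM in isograft libraries (-0.16 ± 0.07, adjusted p = 0.081), and Eef1a1 5137 ± 434 and 5109.9 ± 227 CPM (0.01 ± 0.07, adjusted p = 0.94).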

How the data were processed

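RNA-seq was measured in 6 libraries, 3 per group by the labels' titles. The authors deposited raw counts for each Ensembl gene. Per the file headers, the authors counted read pairs over exons with featureCounts 1.6.0 on Ensembl release 104 (GRCm39), with no strand or multi-mapping option, after alignment with HISAT (no version given). By that tool's defaults, antisense partners are not told apart and multi-mapped reads are left out. GRCm38 and mm10 are named in the submitters' processing notes. Of the 41 members, 38 have gene intervals that do not overlap between the builds, yet at least 2156 counts each, so coordinates are GRCm39. Symbols matched 52083 of 55416 Ensembl IDs.

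From the counts, genes were filtered with filterByExpr (14926 kept) and scaled by TMM. The test was edgeR's quasi-likelihood test (robust), over both groups, Benjamini-Hochberg adjusted, threshold 0.05; SE is the log2 fold change over the root of F. Software was edgeR 4.0.16, DESeq2 1.42.0 and limma 3.58.1 in R 4.3.3, with matplotlib 3.10.9. The procedure was tested on simulated data in which few genes changed, in random directions. Such data cannot judge the choice of scaling here, where 57.8% of all genes tested passed the threshold. Libraries of a group differed by more than sampling noise (chi-square per degree of freedom 10.4 to 22.1). Members and lists were chosen with earlier results of these data known. Values in every library are given for members past the threshold and changed at least 2-fold, for the related pairs and for the largest changes of each group, and for other members as means; of each further list, the 4 smallest p-values are named, with others chosen after their values were seen. The alternatives were RLE scaling, total counts, DESeq2, limma-voom, non-robust estimation, 2 other low-count filters, a replicate block, each library left out, and immunoglobulin, hemoglobin and mitochondrial genes left out. Depth was 30066137 to 37821738 counts, and taken over all genes the spread between libraries exceeded counting error. This does not hold for each gene with fewer counts. For Eif2b3 in isograft libraries (410, 482 and 383 counts) counting error was not small beside the spread.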

Additional observations from a re-analysis of the deposited data

How the results depend on the processing

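Of the 41 members, 30 kept their direction and their side of the threshold in all 15 alternatives. The alternative that moved most was total counts in place of TMM. On that scale 28 members rose and 4 fell, with 1 fall in eIF2B and 2 in eIF3. The median log2 fold change became 0.53 over the members, 1.30 for eIF2, 0.33 for eIF2B, 0.42 for eIF3 and 0.38 for eIF4. The sign turned for 7 members, Eif2b4 (-0.03), Eif3h (-0.18), Eif3k (-0.02), Eif3m (-0.06), Eif4a2 (-0.01), Eif4b (-0.12) and Eif4g3 (-0.00081), of which Eif3h alone passed there. Eif2b2, not past the threshold, lay at -0.13 to 0.07 with a library left out, above 0 without allograft replicate 3 (0.07) and without isograft replicate 3 (0.01). Falls numbered 5 among the other initiation factors and 10 among the genes of initiation control, and elongation and termination had 4 rises and 3 falls. The medians moved with all genes, whose median moved by -0.22. That elongation list also had 1 fall with no low-count filter and with at least 5 CPM in 3 libraries, and 0 to 1 falls with a library left out. With 1 library left out, 32 to 35 members rose and 2 fell. The median was 0.70 to 0.80 over the members and 0.37 to 0.62 for eIF2B, and the eIF2B median minus that of eIF3 was -0.24 to -0.04, that of eIF4 minus eIF3 -0.12 to 0.01, so these orders are within the effect of single libraries. The eIF2 median stayed 0.84 to 0.93 above that of eIF3. Counts without division by gene length gave differences in share of 11.7 percentage points for Eif4g1 and 54.8 for Eif4ebp1, against 10.1 and 45.3. With the replicate number as a block 34 members rose and 2 fell, with no call changed. Same-numbered libraries did not deviate together (correlations -0.0628, 0.00293 and -0.0338), so the numbers were not taken as pairs. Depth limits Eif2b1 most, at 276 to 425 counts a library.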
